A study of Macaca mulatta with 8 samples.

Results

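The 69 genes described here are the rhesus macaque genes whose platform symbol begins with IFT, BBS, CEP or DNAH followed by a number, or with DNAI, DYNC2 or TCTN. The rule uses their names and no measured value, and finds them among 14132 measured genes, where they are covered by 141 probe sets. They comprise 14 IFT, 6 BBS, 31 CEP, 10 DNAH, 4 DNAI and 3 DYNC2 genes and TCTN2. RNA came from granulosa cells of follicles after follicle-stimulating hormone (FSH) followed by an ovulatory stimulus with human chorionic gonadotropin (hCG) in vivo (VVM-GC, 4 arrays), and from granulosa cells under FSH stimulation alone (PM-GC, 4 arrays). All animals had therefore received FSH, and the groups are called after hCG and before hCG below. The series design calls the cells mural, that is, from the follicle wall, whereas the source labels name cumulus-oocyte complexes. Neither the interval after hCG nor the age of the animals is stated in the labels, and nothing ties replicates to separate animals, so p-values measure only the spread between these samples, which may be partly technical. The comparison asks how the cells differ after the ovulatory stimulus.

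A cilium is a microtubule-based projection that grows from a centriole docked at the cell surface. Granulosa cells are known to carry a single immotile primary cilium, a site of Hedgehog signalling in many cell types. Intraflagellar transport (IFT) moves cargo along it: IFT-B complexes travel outward with kinesin, IFT-A complexes and a dedicated dynein bring cargo back, and the BBSome carries membrane proteins. The same centrioles organise the centrosome and are duplicated once per division cycle, and dividing cells use them at the spindle poles. CEP proteins build or decorate centrioles, and DNAH and DNAI proteins are dynein arms of motile cilia.

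All values are log2 intensities, each mean carries its SD over the 4 arrays of a group (n = 4), and changes are after hCG minus before hCG with their standard error (SE). A gene passed when its adjusted p from limma, with Benjamini-Hochberg adjustment over all genes, was below 0.05. Signals of different probe sets cannot be read as relative amounts of transcript, and fewer cells of a type cannot be told apart from less RNA per cell. No sequence of these genes was used here.

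Arrays correlated at 0.974 to 0.984 after hCG and 0.984 to 0.988 before hCG (Pearson, over probe sets). Array 4 after hCG gave the lowest of the 4 values for 27 of the 69 genes (39.1%), against 25.8% of all genes. Array 3 after hCG gave the highest of the 4 values for 30 of the 69 genes (43.5%), against 29.9% of all genes. The median over the 69 genes was 6.61 on that array and 6.07 to 6.22 on the other 3 after hCG, against 6.37 to 6.48 before hCG. On that array the 3' minus 5' difference of ACTB, a measure of RNA integrity, was the highest of the 8, at 5.18, with 4.47 to 4.83 on the others after hCG and 4.70 to 4.80 before hCG. The same difference for GAPDH was 2.76 on that array and 2.53 to 2.699 on the others after hCG, against 2.65 to 2.81 before hCG, so it did not stand apart from the arrays before hCG. The leukocyte marker PTPRC read 3.89 on array 3 after hCG and 5.78 to 7.39 on the others after hCG, against 6.11 to 6.92 before hCG. The part of RNA integrity or leukocytes in these values was not tested.

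Of the 69 genes, 5 were lower and 5 were higher after hCG, and 59 did not pass. That is 14.5% called, where 23.8% of all genes were called (12.5% lower and 11.3% higher). The median change of the 69 was -0.06, against -0.09 over all genes. The groups did not overlap for 16 of the 69 (23.2%), 10 lower and 6 higher, where the background was 27.2% (15.4% lower and 11.8% higher). The share called lay below the background, and the changes that did pass ran in both directions. IFT46, CEP152, BBS12, CEP41 and CEP192 fell, and DYNC2I1, CEP162, IFT80, CEP120 and IFT74 rose. Without array 3 after hCG, 7 of the 69 genes were lower and 6 higher, 18.8% called against 23.7% of all genes.

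**Figure D1:**
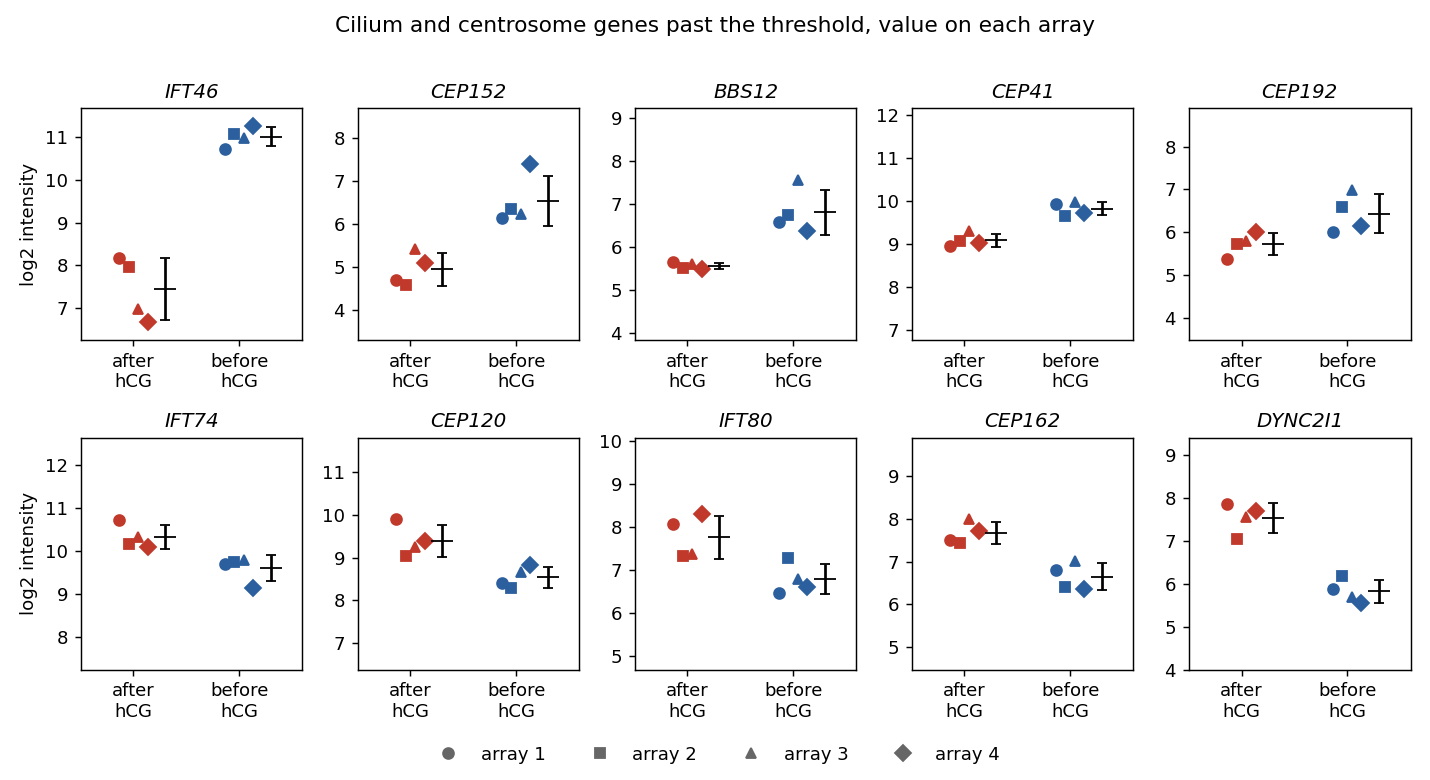
Log2 intensity (vertical axis) on each of the 8 arrays for the 10 cilium and centrosome genes past the threshold, after hCG in red and before hCG in blue, with symbols for array number and bars for mean ± SD (n = 4). All panels span the same range of log2 units. The groups do not overlap in any panel, and the IFT46 groups lie farthest apart.

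Within the IFT-B complex, which carries cargo toward the ciliary tip, IFT46 fell while IFT74 and IFT80 rose. IFT46, an IFT-B subunit needed for cargo entry, read 8.17, 7.97, 6.99 and 6.67 on the 4 arrays after hCG. It read 10.71, 11.07, 10.97 and 11.25 before hCG. Every array after hCG was well below every array before hCG, and arrays 3 and 4 after hCG were the lowest. The mean was 7.45 ± 0.729 after hCG and 11.0015 ± 0.228 before hCG, a change of -3.55 (SE 0.32, adjusted p = 6.35e-05), or 11.7-fold lower after hCG. IFT46 has a further probe set, which did not show this: it averaged 8.16 ± 0.191 after hCG and 8.19 ± 0.206 before hCG (change -0.03, adjusted p = 0.914 over all probe sets). The mean of the pair fell by 1.79 and still passed. The part of the transcript that each probe set covers was not looked up here.

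IFT74, a core subunit that with its partner binds tubulin, read 10.74, 10.17, 10.32 and 10.10 after hCG, against 9.71, 9.74, 9.79 and 9.15 before hCG. The groups did not overlap, although the gap was small beside their spread (change 0.73, SE 0.19, adjusted p = 0.0191). IFT80, a peripheral subunit mutated in human skeletal ciliopathies, read 8.07, 7.32, 7.37 and 8.30 after hCG, against 6.45, 7.27, 6.79 and 6.61 before hCG. Arrays 2 and 3 after hCG were close to array 2 before hCG. Its change was 0.98 (SE 0.26, adjusted p = 0.0211), and its other probe set rose by 0.99. IFT80 lost its call when array 1 after hCG was omitted (adjusted p = 0.0581), and likewise when array 1, 3 or 4 before hCG was (adjusted p = 0.0608, 0.0502 and 0.0607).

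The remaining 8 IFT-B genes did not pass. IFT25, a small subunit linked to Hedgehog signalling in mice, read 11.02, 10.47, 11.15 and 11.02 after hCG, against 10.26, 10.59, 10.89 and 10.67 before hCG (change 0.32, SE 0.18, adjusted p = 0.249). IFT20, which also resides at the Golgi, averaged 10.49 ± 0.12 after hCG and 10.35 ± 0.145 before hCG (adjusted p = 0.443). IFT88, a core subunit whose loss abolishes cilia in mice, ranged from 4.94 to 6.51 after hCG and from 5.58 to 6.06 before hCG (change -0.06, SE 0.30), so its spread after hCG was wide. IFT52, IFT56, IFT70B, IFT172 and IFT27 differed by -0.20 to 0.06. IFT70B belongs to a pair of near-identical paralogs that its probes may also bind.

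None of the 3 IFT-A genes, whose complex serves the return journey and entry of receptors, passed. IFT140 differed by -0.29 (SE 0.17, adjusted p = 0.255), IFT43 by 0.06 and IFT122 by 0.11. IFT140 has 3 probe sets, all lower after hCG, with changes of -0.29 to -0.42. Their mean passed (change -0.36, adjusted p = 0.0461), as did 1 of the 3 on its own (adjusted p = 0.0424 over all probe sets).

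The dynein that drives return transport changed in 1 of its 3 measured subunits. DYNC2I1, an intermediate chain, read 7.85, 7.05, 7.56 and 7.68 after hCG. It read 5.88, 6.18, 5.69 and 5.55 before hCG. The lowest array after hCG exceeded the highest before hCG, and the change was 1.71 (SE 0.20, adjusted p = 0.000241), or 3.28-fold higher after hCG. The further probe set of DYNC2I1, with a mean signal of 3.62 after hCG and 3.25 before hCG, differed by 0.37 (adjusted p = 0.216 over all probe sets), and the mean of the pair rose by 1.04. The partner intermediate chain DYNC2I2 averaged 8.40 ± 0.369 after hCG and 8.64 ± 0.215 before hCG (adjusted p = 0.418). The light intermediate chain DYNC2LI1 differed by -0.04 (SE 0.12).

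**Figure D2:**
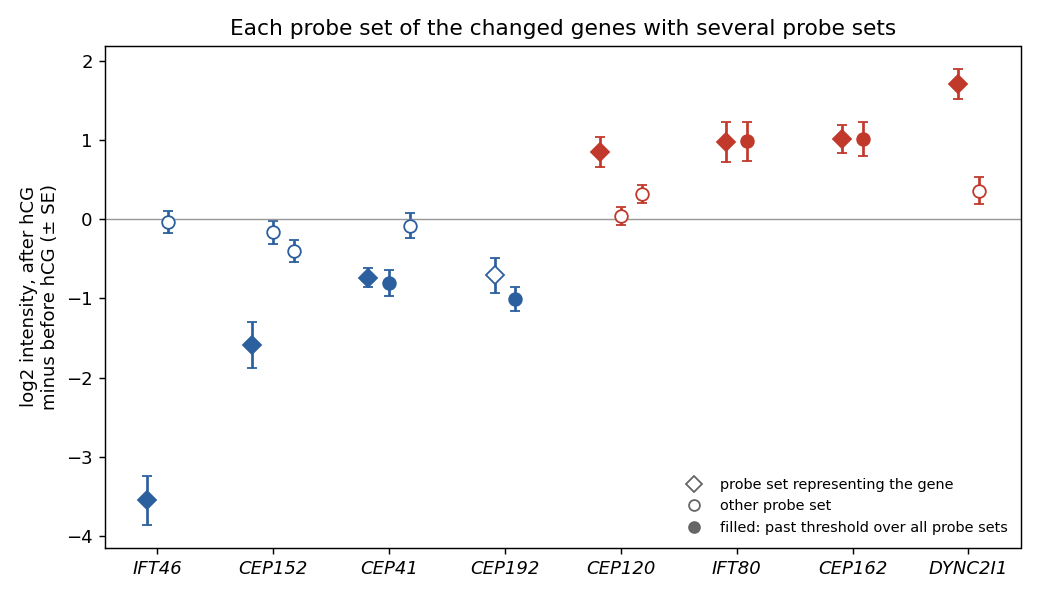
Change in log2 intensity (after hCG minus before hCG, ± SE) for each probe set of the 8 changed genes that have several. Diamonds mark the probe set that represents the gene, circles the others, and filled symbols passed the threshold over all probe sets. Both probe sets of IFT80 and of CEP162 rose alike, whereas the pair of IFT46 gave -3.55 and -0.03.

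Among BBS genes, whose loss causes Bardet-Biedl syndrome in humans, only BBS12 passed. BBS12 is a chaperonin-like protein that helps assemble the BBSome and is not itself part of it. It read 5.64, 5.52, 5.61 and 5.50 after hCG, against 6.58, 6.74, 7.57 and 6.36 before hCG. The arrays after hCG were tightly grouped just above the array medians of 5.44 to 5.54, and those before hCG were higher and more spread (change -1.25, SE 0.23, adjusted p = 0.00352, 2.37-fold lower after hCG). MKKS, another chaperonin-like protein of this step and listed among related genes, read 8.19, 8.03, 8.32 and 7.78 after hCG, against 8.94, 8.99, 9.07 and 9.74 before hCG (change -1.11, SE 0.20, adjusted p = 0.00289), while its other probe set differed by 0.02. The companion BBS10 differed by 0.12 (SE 0.31, adjusted p = 0.822).

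The 4 measured BBSome subunits did not pass. BBS4 read 6.74, 7.44, 7.63 and 7.18 after hCG, against 7.99, 7.47, 7.75 and 7.84 before hCG. The groups overlapped by array 3 after hCG, and BBS4 missed the threshold (change -0.52, adjusted p = 0.0896), which it passed without that array (change -0.64, adjusted p = 0.0401). BBS5 differed by 0.26 (SE 0.30), BBS7 by 0.08 and BBS9 by -0.22.

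The transition zone gates the base of the cilium. CEP162, which ties transition zone proteins to the axoneme, read 7.51, 7.44, 7.996 and 7.71 after hCG, against 6.79, 6.40, 7.01 and 6.37 before hCG. The groups were clearly apart (change 1.02, SE 0.18, adjusted p = 0.00315, 2.03-fold higher after hCG), and its other probe set also rose by 1.02. CEP290, a large gate protein, ranged from 4.39 to 5.65 after hCG and from 5.23 to 5.70 before hCG (change -0.49, adjusted p = 0.233, but -0.74 and adjusted p = 0.0343 without array 3 after hCG). TCTN2, a tectonic of the gate, read 5.80, 5.81, 5.73 and 5.82 after hCG, against 6.03, 6.07, 5.92 and 5.88 before hCG. Its groups did not overlap, but the change was small and did not pass (-0.18, SE 0.10, adjusted p = 0.22).

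Distal appendages dock the mother centriole to the membrane, and none of their 3 genes passed. CEP164 read 8.47, 8.19, 8.65 and 7.54 after hCG, against 8.09, 7.75, 7.07 and 7.33 before hCG. Array 4 after hCG lay among those before hCG (change 0.65, adjusted p = 0.124), and without it CEP164 passed (change 0.88, adjusted p = 0.0318). CEP83 and CEP89 differed by -0.27 and -0.08.

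Genes of centriole duplication and centrosome maturation were mixed. CEP152, the scaffold that recruits the duplication kinase PLK4, read 4.69, 4.58, 5.42 and 5.07 after hCG. It read 6.14, 6.34, 6.22 and 7.40 before hCG. All arrays after hCG were below the array medians and all arrays before hCG above them, with array 4 before hCG the highest (change -1.59, SE 0.29, adjusted p = 0.00362, 3.004-fold lower after hCG). The other probe sets of CEP152 differed by -0.16 and -0.40, at mean signals of 4.34 and 4.21 over all arrays, and neither passed. The mean of all 3 fell by 0.72 and passed. With 32 added to each intensity, CEP152 fell by 0.99.

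CEP192, which works beside CEP152 and gathers pericentriolar material, read 5.39, 5.72, 5.80 and 5.999 after hCG, against 6.002, 6.59, 6.99 and 6.14 before hCG. The highest array after hCG and the lowest before hCG nearly coincided (change -0.71, SE 0.22, adjusted p = 0.0475). This call was lost under 10 of 16 alternatives, among them the omission of array 1, 2 or 3 after hCG or of array 2, 3 or 4 before hCG (adjusted p up to 0.117). The other probe set of CEP192 fell by 1.005 (adjusted p = 0.00141 over all probe sets) and its groups did not overlap.

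CEP120, which promotes centriole elongation, rose: it read 9.89, 9.03, 9.25 and 9.39 after hCG, against 8.40, 8.29, 8.65 and 8.82 before hCG. The groups did not overlap (change 0.85, SE 0.20, adjusted p = 0.0113). Its other probe sets, with mean signals of 4.96 and 5.44 over all arrays, differed by 0.32 and 0.04 and did not pass, and the mean of all 3 rose by 0.40. CEP57 and CEP57L1 are related proteins of the pericentriolar material. All 6 probe sets of CEP57 had positive changes, of 0.06 to 0.70, and none passed on its own, while their mean did (change 0.46, adjusted p = 0.0342). CEP57L1 read 5.25, 5.15, 4.68 and 4.80 after hCG, against 4.24, 4.42, 4.66 and 4.62 before hCG, without overlap (change 0.49, adjusted p = 0.0539). It passed under 4 alternatives, including both other scalings of the arrays and the omission of array 3 after hCG (adjusted p = 0.0287).

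CEP63, the partner of CEP152, differed by -0.01 (SE 0.20), CEP97, which caps centrioles, by -0.03, and CEP44 by -0.01. CEP295, which helps new centrioles mature, read 5.20, 5.46, 5.34 and 4.90 after hCG, against 5.54, 5.50, 5.47 and 5.998 before hCG. It did not overlap but did not pass (change -0.40, adjusted p = 0.113). Among the 5 genes of subdistal appendages and the centriole linker, none passed. CEP250, the linker's anchor, averaged 6.73 ± 0.111 after hCG and 7.001 ± 0.056 before hCG without overlap (change -0.27, adjusted p = 0.0882), and passed with 32 added to each intensity (adjusted p = 0.0353). CEP170 missed the threshold at 0.42 (adjusted p = 0.0748) and passed when array 1 after hCG was omitted (adjusted p = 0.0437), with a further probe set at -0.34. CEP128 and CEP68 differed by -0.43 and -0.32, and CEP170B by 0.10. A further probe set of CEP128 fell by 0.46 without overlap (adjusted p = 0.0344 over all probe sets), and its last differed by -0.05. The other probe sets of CEP68 differed by -1.12 and -0.19, and neither passed (adjusted p = 0.158 and 0.413 over all probe sets).

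Of the other 12 CEP genes, only CEP41 passed. CEP41, a ciliary protein needed for tubulin glutamylation in the axoneme, read 8.94, 9.08, 9.29 and 9.01 after hCG, against 9.92, 9.65, 9.97 and 9.72 before hCG. The spread within each group was narrow beside the gap (change -0.74, SE 0.12, adjusted p = 0.00216). Of its 3 probe sets, 2 fell, by 0.74 and 0.80, and the other differed by -0.08. CEP20, a small protein of centriolar satellites, averaged 9.84 ± 0.132 after hCG and 9.99 ± 0.0522 before hCG (adjusted p = 0.343). CEP72, another satellite protein, read 5.85, 5.83, 7.05 and 5.47 after hCG, against 6.78, 6.78, 6.66 and 6.37 before hCG. Only array 3 after hCG was above the arrays before hCG (change -0.60, adjusted p = 0.185), and without it CEP72 passed (change -0.93, adjusted p = 0.00279). CEP95 did not pass at 0.43 (adjusted p = 0.321) but did when array 4 after hCG was omitted (adjusted p = 0.0465). The remaining 8, CEP19, CEP70, CEP78, CEP85, CEP85L, CEP112, CEP126 and CEP131, differed by -0.33 to 0.40.

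**Figure D3:**
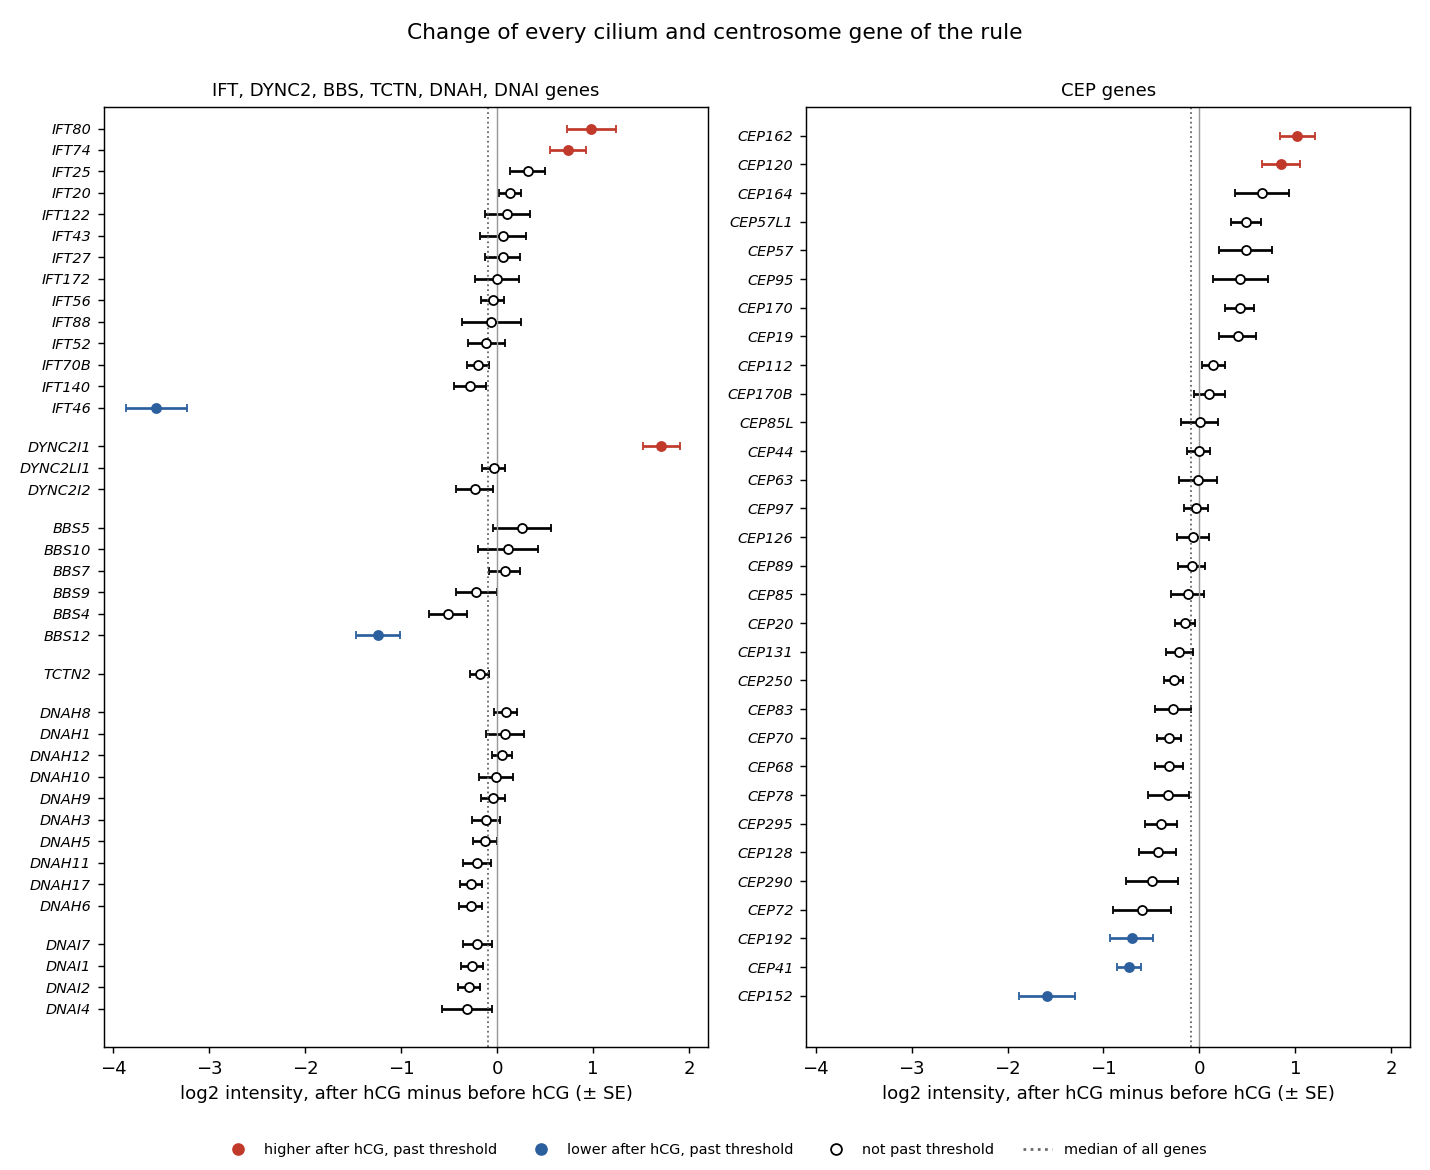
Change in log2 intensity (after hCG minus before hCG, horizontal axis, ± SE) of each of the 69 genes by family. Red and blue filled points passed the threshold as higher or lower after hCG, open points did not, and the dotted line is the median of all genes (-0.09). All DNAH and DNAI genes are open and lie between -0.32 and 0.09.

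None of the 14 axonemal dynein genes (10 DNAH heavy chains and 4 DNAI genes) passed, where 23.8% of all genes did. Of these 14, 8 had a mean signal below the median probe set, where only 7.65% of all genes passed. The changes of the 14 genes lay between -0.32 and 0.09 with a median of -0.16, and 11 of 14 were negative. Changes were also negative for 8755 of all 14132 genes, and for 2634 of the 3779 genes below the median probe set. DNAH11, an outer arm heavy chain, read 6.19, 6.45, 6.70 and 6.56 after hCG, against 6.94, 6.54, 6.59 and 6.66 before hCG (adjusted p = 0.328). DNAI2, an outer arm intermediate chain, averaged 6.43 ± 0.127 after hCG and 6.72 ± 0.142 before hCG (change -0.29, adjusted p = 0.105). The mean of its 2 probe sets passed (-0.30, adjusted p = 0.0365). DNAI1 and DNAH17 did not overlap between the groups but differed by only -0.26 and -0.27 (adjusted p = 0.137 and 0.123). Of all 69 genes, 18 had a mean signal below the median probe set, and none of these 18 passed, against 7.65% of all genes below that median. The table carries no detection calls, so such values do not show whether a transcript is present.

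Other cilium and centrosome genes were taken from lists chosen by function. In the centriole and centrosome core list, 10 of 36 measured genes fell (27.8%, against 12.5% of all genes) and 1 rose, with a median change of -0.17. The count of falls was 6 without array 2 after hCG and 6 to 8 over all omissions of 1 array. POC5, NINL, SCLT1 and CROCC, named after their values were seen, each lost their call in most alternatives. POC1A, which stabilises centrioles, read 5.81, 5.90, 5.81 and 5.43 after hCG, against 7.53, 7.40, 7.45 and 7.54 before hCG (change -1.74, SE 0.13, adjusted p = 1.75e-05). STIL, which builds the cartwheel of a new centriole, averaged 6.08 ± 0.327 after hCG and 7.63 ± 0.278 before hCG (change -1.55, SE 0.19, adjusted p = 0.000381). CENPJ, which controls centriole length, fell by 1.25 (SE 0.21), and all 3 of its probe sets fell. NIN, a subdistal appendage protein, rose by 0.77 (SE 0.18), with its other probe set at 0.18. In the list of HAUS and microtubule nucleation genes, 4 of 11 fell and 1 rose (median -0.29, 45.5% called). AURKA, a mitotic kinase that also promotes cilium disassembly, fell by 1.95 (SE 0.20), TACC3, a spindle protein, by 1.61 and HAUS8, an augmin subunit, by 1.14, while TACC1 rose by 1.16, a call lost without array 1 before hCG (adjusted p = 0.0508). The AURKA probe sets included 1 at 0.08.

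Markers of cell division were also measured, and 11 of 12 fell and 1 rose, with a median of -1.83. Their summed linear intensity was 3054 to 3737 after hCG and 10011 to 12478 before hCG. MKI67, CDK1 and TOP2A fell by 2.995, 2.85 and 2.38, and TPX2 rose by 1.09. Further probe sets had smaller changes, of -0.90 and -1.03 for MKI67, -0.73 and -0.66 for CDK1 and -2.18 for TOP2A. The part of cell division in the changes of the CEP genes was not tested.

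Among ciliary genes outside the named families, calls were below the share of all genes (23.8%) in the lists of the transition zone (15%), traffic and signalling (20.7%) and the motile axoneme (13.8%). The share was 12.5% for 8 ciliogenesis transcription factors and 33.3% for 9 ciliary motors and tip kinesins. Both lists are short, so neither share is read as differing from that of all genes. In the transition zone list, 2 of 20 rose and 1 fell (median -0.16). Without array 3 after hCG, 2 rose and 5 fell. TMEM107 and TMEM17, membrane proteins of the gate, rose by 1.30 (SE 0.12) and 1.03 (SE 0.18), and IQCB1, a nephrocystin, fell by 0.61. In the list of ciliary traffic and signalling, which includes IFT25, 5 of 29 rose and 1, MKKS, fell (median 0.02). Rises were 17.2% of this list, against 11.3% of all genes, and falls 3.45%, against 12.5%. Over omissions of 1 array, 4 to 6 of its genes rose and 1 or 2 fell. UNC119, which ferries lipidated proteins into cilia, read 12.72, 12.27, 11.84 and 12.36 after hCG, against 9.11, 9.17, 9.21 and 9.32 before hCG (change 3.10, SE 0.17, adjusted p = 4.23e-06). GPR161, a ciliary receptor that restrains Hedgehog signalling, averaged 9.87 ± 0.386 after hCG and 7.17 ± 0.1 before hCG (change 2.702, SE 0.18), and all 3 of its probe sets rose. RAB3IP, the exchange factor that starts vesicle delivery to the growing cilium, rose by 2.63 (SE 0.26). Of these 3, the lowest array after hCG exceeded the highest before hCG by more than 1 log2 unit. GLI2, another rise (0.89) and named after its values were seen, kept its call in 9 of 16 alternatives. Its other probe set differed by -0.22.

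In the list of ciliary motors and tip kinesins, 2 of 9 fell and 1 rose (median -0.11). KIF3B, a subunit of the kinesin that drives outward transport, rose by 0.63 (adjusted p = 0.0353), and the depolymerising kinesins KIF2A and KIF24 each fell by 0.67. The KIF3B call was lost with quantile normalization repeated and without array 1, 3 or 4 after hCG or array 3 or 4 before hCG, and that of KIF2A without array 2, 3 or 4 after hCG or array 2 before hCG. Of 8 measured genes listed as RFX family members or other ciliogenesis factors, RFX5 fell by 0.76 and the others did not pass (median -0.17). That RFX5 itself acts in ciliogenesis was not established here. In the list of motile axoneme and dynein assembly genes, 3 of 29 rose and 1 fell (median -0.11). EFHC2, an axonemal microtubule protein, rose by 1.78 (SE 0.23), with its other probe set at 0.05. RSPH9 and NME5, both of radial spokes, rose by 0.71 and 0.66, with adjusted p of 0.0442 and 0.0459. RSPH9 lost its call without array 1, 2 or 3 after hCG or array 1, 2 or 3 before hCG, and NME5 without array 1 or 4 after hCG or any 1 array before hCG. Both calls were also lost with 32 added to each intensity, with p-values adjusted over all probe sets and with array numbers as a block (adjusted p = 0.0743 for RSPH9 and 0.0728 for NME5). DNAAF2, an assembly factor, fell by 0.79, at signals below the array medians, and its call was lost without array 1 after hCG (adjusted p = 0.0544) and with 32 added to each intensity (-0.25, adjusted p = 0.0774).

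**Figure D4:**
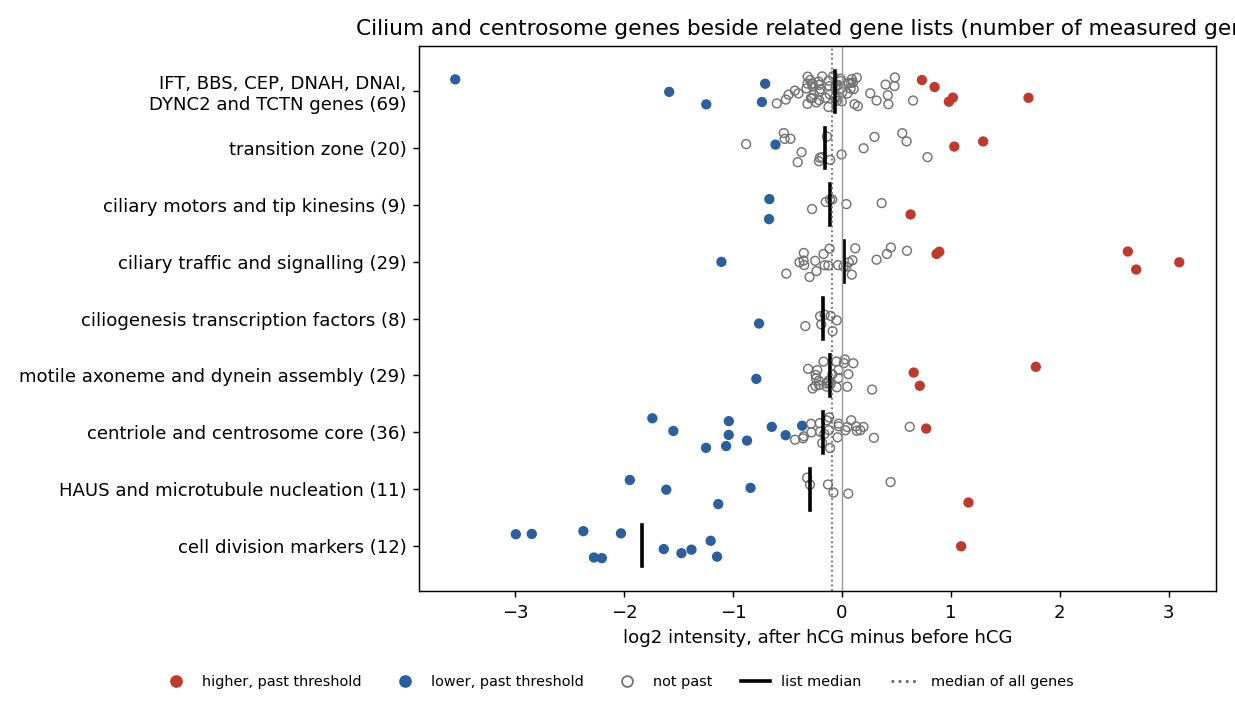
Change in log2 intensity (after hCG minus before hCG, horizontal axis) of the 69 genes and of the measured genes of 8 related lists, 1 point per gene, with black bars for the median of each list and a dotted line for all genes. Filled points passed the threshold. Cell division markers lie to the left, with a median of -1.83, while the medians of the other lists lie between -0.29 and 0.02.

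The 3 granulosa markers of highest signal were INHA, FST and INHBA. INHA averaged 13.50 ± 0.186 after hCG and 14.07 ± 0.0789 before hCG, FST 12.26 ± 0.177 after hCG and 11.94 ± 0.262 before hCG, and INHBA 11.12 ± 0.226 after hCG and 12.76 ± 0.194 before hCG. Others were dimmer: INHBB averaged 5.79 ± 0.457 after hCG, near the array medians, and 8.29 ± 0.504 before hCG, and ESR2 averaged 6.56 ± 0.131 after hCG and 6.76 ± 0.124 before hCG. Of 12 granulosa markers, 10 fell, and their summed linear intensity was 20736 to 24999 after hCG and 36316 to 44086 before hCG. Of 8 oviduct epithelium markers, a source of motile cilia, 1 fell and 7 did not pass, with sums of 523 to 634 after hCG and 607 to 661 before hCG. The probe sets of CAPS, PAX8 and FOXJ1 differed by -0.04, -0.12 and -0.16. For leukocyte markers 1 of 8, CSF1R, fell (sums of 467 to 1300 after hCG and 1390 to 1555 before hCG), with CSF1R at -2.09, TYROBP at -0.09 and CD14 at 0.22. The median change of the 8 was -0.14, and CD68 missed the threshold at 0.84 (adjusted p = 0.0502). Of 9 endothelial markers none passed (sums of 468 to 1042 after hCG and 506 to 608 before hCG), with VWF at 1.26, PECAM1 at 0.01 and CLDN5 at -0.31. For theca markers 1 of 4 fell (sums of 282 to 528 after hCG and 265 to 480 before hCG), with NR2F2 at 0.45, PTCH1 at 0.60 and CYP17A1 at -0.47. No theca marker passed without array 1, 3 or 4 after hCG or array 2, 3 or 4 before hCG. Of 9 oocyte markers 1, KIT, rose (sums of 1328 to 2338 after hCG and 734 to 935 before hCG), with ZP4 at 0.31, KIT at 3.07 and ZP1 at -0.21. The median change of the 9 was -0.10. Of 8 surface epithelium markers 2 rose (sums of 1020 to 1606 after hCG and 790 to 970 before hCG), with KRT19 at 1.32, UPK3B at -0.31 and KRT18 at 2.25. Changes were negative for 6 of these 8, with a median of -0.09, and the groups of KRT19 overlapped. Without array 1, 2 or 3 after hCG or array 1, 3 or 4 before hCG, 1 surface epithelium marker rose, and without array 2 after hCG 1 also fell. No marker was listed at 0, and the part of other cell types in the results was not tested.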

How the data were processed

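RNA of 8 samples, 4 per group, was hybridised to 1 Affymetrix rhesus macaque array each, after linear amplification of total RNA, per the labels' protocols. The authors deposited intensity values made with Affymetrix Expression Console and RMA, per the submitters' processing notes. They are on a linear scale (array medians 43.5 to 46.5), so log2 was taken. Of 52865 rows, 99 array controls were left out. Of 52766 probe sets, 24956 had 1 gene symbol in the platform annotation, 361 several and 27449 none; symbols were updated by gene ID for 24616. Each of 14132 genes took the values of whichever of its probe sets had the highest mean signal. The groups were compared with limma 3.58.1 in R 4.3.3 (lmFit, eBayes), over all genes. No sample column was left unmapped.

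Named with their values were the genes past the threshold, those whose groups do not overlap and the highest in signal of each family, at most 3 genes per list and direction past the threshold (those with the largest change), and the 3 markers of highest signal per cell type. The genes and lists were chosen with earlier results of these data known. On simulated data with 200 of 14132 genes changed, 18.2%, 69.6% and 94.5% of planted log2 changes of 0.5, 1 and 2 were recovered. Far more genes, 23.8%, were called in the real data, and the adjustment depends on that share. The recovered shares therefore need not hold for this comparison. The number of arrays limits the precision.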

Additional observations from a re-analysis of the deposited data

Results flagged for a closer look

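In 8 of 138 groups of 4 arrays (69 genes, both groups), 1 array lay far from the other 3 by Dixon's criterion, which chance alone meets in about 1 in 20 groups. After hCG, CEP85 read 8.80 on array 4, with 8.19 to 8.24 on the others. CEP112 read 5.99 on array 1 after hCG, with 5.64 to 5.69 on the others. DNAH1 read 6.03 on array 4 after hCG, with 5.28 to 5.4035 on the others. Before hCG, CEP152 read 7.40 on array 4, with 6.14 to 6.34 on the others. CEP295 read 5.998 on array 4 before hCG, with 5.47 to 5.54 on the others. IFT74 read 9.15 on array 4 before hCG, with 9.71 to 9.79 on the others. CEP83 read 5.16 on array 2 before hCG, with 5.75 to 5.86 on the others. DNAH12 read 4.08 on array 2 before hCG, with 3.96 to 3.98 on the others. CEP152 and IFT74 passed the threshold under each of the 16 alternatives, those without array 4 before hCG included.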

How the results depend on the processing

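Against 5 genes lower and 5 higher after hCG, the other settings gave 4 and 6 with quantile normalization repeated or arrays centred, 5 and 5 with 32 added or dim genes left out, 7 and 6 with the mean of all probe sets, 4 and 5 with p-values adjusted over all probe sets, and 5 and 6 with an intensity trend. With array numbers as a replicate block, 5 were lower and 4 higher, IFT80 being lost (adjusted p = 0.0636). Among the called genes of the lists chosen by function, the block also ended the calls of RSPH9, NME5, SCLT1 and CROCC. Over all genes it gave 1554 lower and 1509 higher, against 1764 and 1595 without it. Deviations of same-numbered arrays correlated at -0.03 to 0.16, and those of differently numbered arrays at -0.21 to 0.16. The numbers were not taken as pairs, but with 4 arrays per group this check cannot settle whether samples were paired. Leaving out 1 array gave 4 to 7 lower and 4 to 7 higher. In each setting the called share of the genes of the rule was below that of all genes. It ranged from 11.6% to 19.6%, and that of all genes from 19.1% to 30.2%. Of 10 calls, all but CEP192 and IFT80 held under each of 16 alternatives. No called gene changed sign under any of them, and 60 sign changes were of values that passed under neither setting. Over all genes, 47.5% of calls were higher, against 40.8% with quantile normalization repeated and 52.4% with arrays centred. The causes were not tested. Signal over background is not given in the table, so dim probe sets carry the least information.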
